A study of Homo sapiens with 9 samples.

Results

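LYPD5, ZNF404 and 7 genes around them form a stretch of the long arm of human chromosome 19, and their transcripts were followed in MDA-MB231, an established breast cancer line. The 9 genes were taken by their symbols in the platform annotation, out of 20046 genes named there, and 14 probes carry those symbols. In chromosomal order they are SMG9, KCNN4, LYPD5, ZNF283, ZNF404, LOC100505715, ZNF45, ZNF155 and ZNF230. The stretch drew attention because LYPD5, ZNF404 and LOC100505715 stood out in RAI2-4A cells against vector cells. For the members, both comparisons that use the RAI2-4A arrays are therefore given as descriptions, with differences and standard errors (SE) and no test. Flanking and listed genes were tested in every comparison. The members were tested only in RAI2 cells against vector cells. That comparison shares its vector arrays with the one that drew attention to the genes. Its estimate of the spread also includes the RAI2-4A arrays.

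RNA was hybridised to Illumina bead arrays, 3 each for RAI2-4A cells, RAI2 cells and vector cells. RAI2-4A cells overexpressed a form of RAI2 that the labels call RAI2-4A without saying what 4A denotes, RAI2 cells overexpressed RAI2 (retinoic acid induced 2), and vector cells carried the control vector. All groups were MDA-MB231 cells transduced with retrovirus from φNX-ampho packaging cells and kept in 2 µg/ml puromycin for 4 days. Neither the number of independent transductions nor clones or pools are named in the labels, nor is the origin of the replicates, so p-values cover the spread between these arrays, which may be technical.

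LYPD5 encodes a surface protein of the LY6/PLAUR family, small cysteine-rich proteins that are mostly tethered to the membrane by a lipid anchor. ZNF283, ZNF404, ZNF45, ZNF155 and ZNF230 belong to a tandem cluster of zinc finger genes. Many proteins of this class join DNA-binding zinc fingers to a KRAB domain, which recruits the corepressor TRIM28, and they are best known for silencing transposable elements. LOC100505715 is annotated by RefSeq as a long non-coding RNA. KCNN4 encodes a calcium-activated potassium channel, and SMG9 a regulator of the SMG1 kinase in nonsense-mediated mRNA decay.

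The start sites and strands of these genes are shown first because the 3 genes that were high together are not a simple row of adjacent start sites. The table of RefSeq (GRCh38.p14) starts used here matched 8 of the 9 genes, all but ZNF155. LYPD5, ZNF404 and LOC100505715 are all read from the minus strand, as are SMG9, KCNN4 and ZNF45. ZNF283, which lies between LYPD5 and ZNF404, is read from the plus strand, as is ZNF230. From the LYPD5 start, the ZNF283 start lies 24.9 kb away, that of ZNF404 81.5 kb and that of LOC100505715 99.4 kb. The annotated LYPD5 gene reaches 18.2 kb further upstream than the start listed for it, and 6.69 kb separate that outer end from the ZNF283 start. The 250 bases upstream of each of these 4 starts are printed 5′ to 3′ on the gene's own strand, with capitals where a script found the CCAAT box (letters CCAAT), the TATA box (letters TATAAA) or the GC box (letters GGGCGG) on either strand. No 2 of the marked matches overlap.
LYPD5 (chr19:43802448-43802697, minus strand): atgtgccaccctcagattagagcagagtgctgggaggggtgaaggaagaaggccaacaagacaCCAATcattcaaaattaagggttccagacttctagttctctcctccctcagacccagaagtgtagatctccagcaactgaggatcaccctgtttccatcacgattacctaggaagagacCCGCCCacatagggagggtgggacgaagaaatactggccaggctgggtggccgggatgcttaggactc
ZNF283 (chr19:43827071-43827320, plus strand): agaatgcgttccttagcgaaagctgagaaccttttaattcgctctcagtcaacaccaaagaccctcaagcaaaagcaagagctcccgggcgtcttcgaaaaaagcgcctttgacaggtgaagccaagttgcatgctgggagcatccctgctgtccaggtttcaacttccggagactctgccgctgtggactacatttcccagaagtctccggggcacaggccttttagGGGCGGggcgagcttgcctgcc
ZNF404 (chr19:43883965-43884214, minus strand): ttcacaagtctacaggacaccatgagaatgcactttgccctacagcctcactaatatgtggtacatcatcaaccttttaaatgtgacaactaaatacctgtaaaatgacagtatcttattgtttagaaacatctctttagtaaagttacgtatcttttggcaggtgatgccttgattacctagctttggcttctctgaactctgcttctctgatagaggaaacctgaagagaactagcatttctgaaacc
LOC100505715 (chr19:43901804-43902053, minus strand): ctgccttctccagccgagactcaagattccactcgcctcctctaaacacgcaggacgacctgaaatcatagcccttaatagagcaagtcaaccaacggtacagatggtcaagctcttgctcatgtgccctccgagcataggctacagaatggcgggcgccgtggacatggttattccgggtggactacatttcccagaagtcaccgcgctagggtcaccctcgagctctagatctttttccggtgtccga

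On the strands printed, the windows of LYPD5, ZNF404 and LOC100505715 shared no run over 10 bases. LYPD5 held 1 CCAAT and 1 GGGCGG, ZNF283 held 1 GGGCGG, and ZNF404 and LOC100505715 held none of the 3 motifs. Among 35116 RefSeq windows of the same length, 32.0% held CCAAT, 42.6% GGGCGG and 10.7% TATAAA. The ZNF404 window had 1 CpG and 38.4% G and C, against 15 CpG and 54.4% for LOC100505715, 12 and 54.8% for ZNF283, and 4 and 52.8% for LYPD5, where the medians of all windows were 11 CpG and 58% G and C. The longest run shared by any 2 of the 4 windows was one of 23 bases, gtggactacatttcccagaagtc, in ZNF283 and LOC100505715. That run was found in 2 of the 35116 windows, those 2 genes. No other pair shared a run of more than 10 bases. A match of letters describes these windows and does not show that a factor binds there.

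A set of 3 arrays stood apart. RAI2-4A replicate 2, RAI2 replicate 2 and vector replicate 1 deviated together from their group means, with pairwise correlations of residuals of 0.437 to 0.538 across 12438 genes. Those correlations alone do not set them apart, as RAI2-4A replicate 1 and RAI2 replicate 1 had 0.444. On the axis along which residuals varied most, only these 3 arrays scored above 0 (0.375, 0.250 and 0.679). The score of RAI2 replicate 2 was smaller in size than those of vector replicates 2 (-0.312) and 3 (-0.367). Values without these 3 arrays are given where they matter, a choice made after seeing the data. RAI2 itself read 1063, 955 and 1158 in RAI2-4A arrays, 632, 603 and 559 in RAI2 arrays, and 88.3, 86.3 and 95.8 in vector arrays, where it was not above background. All 6 markers of a mesenchymal breast line, such as VIM and CD44, were above background on every array. Of 6 markers listed as low in such a line, ESR1, PGR and FOXA1 were above background on no array. The others went against that listing, with EPCAM above background on all 9 arrays, at 438 to 622, and GATA3 and CDH1 on 8. Of the 4 packaging cell markers LIN28B, NEFM and INA were above background on no array and NEFL on 4, and their summed intensity was 358 to 361 in RAI2-4A, 359.6 to 379 in RAI2 and 360.3 to 385 in vector arrays. The leukocyte markers PTPRC and CD3E and the endothelial markers CDH5 and VWF were above background on no array, and the endothelial marker PECAM1 was above it on 4. In such bulk RNA, a larger share of cells with a transcript and more transcript per cell cannot be told apart.

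LYPD5 was high in RAI2-4A cells and low in both other groups. Its brightest probe (ILMN_1718033) gave deposited intensities, on a linear scale, of 1139, 2370.0 and 1251 in RAI2-4A arrays, 168, 177 and 201 in RAI2 arrays, and 301, 190.4 and 267 in vector arrays. Every RAI2-4A array exceeded every other array, RAI2-4A replicate 2 was the highest, and the RAI2 and vector arrays overlapped. The means were 1587 ± 681 in RAI2-4A cells, 182 ± 17.0 in RAI2 cells and 253 ± 56.5 in vector cells (SD, n = 3 each). On the log2 scale after background correction, LYPD5 was 2.72 (SE 0.25) above vector and 3.22 (SE 0.25) above RAI2, folds of 6.57 and 9.34. Leaving out the 3 arrays that stood apart gave 2.54 and 2.87. The order of the mean levels was RAI2-4A, vector, RAI2, with overlapping arrays for vector and RAI2.

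**Figure D1:**
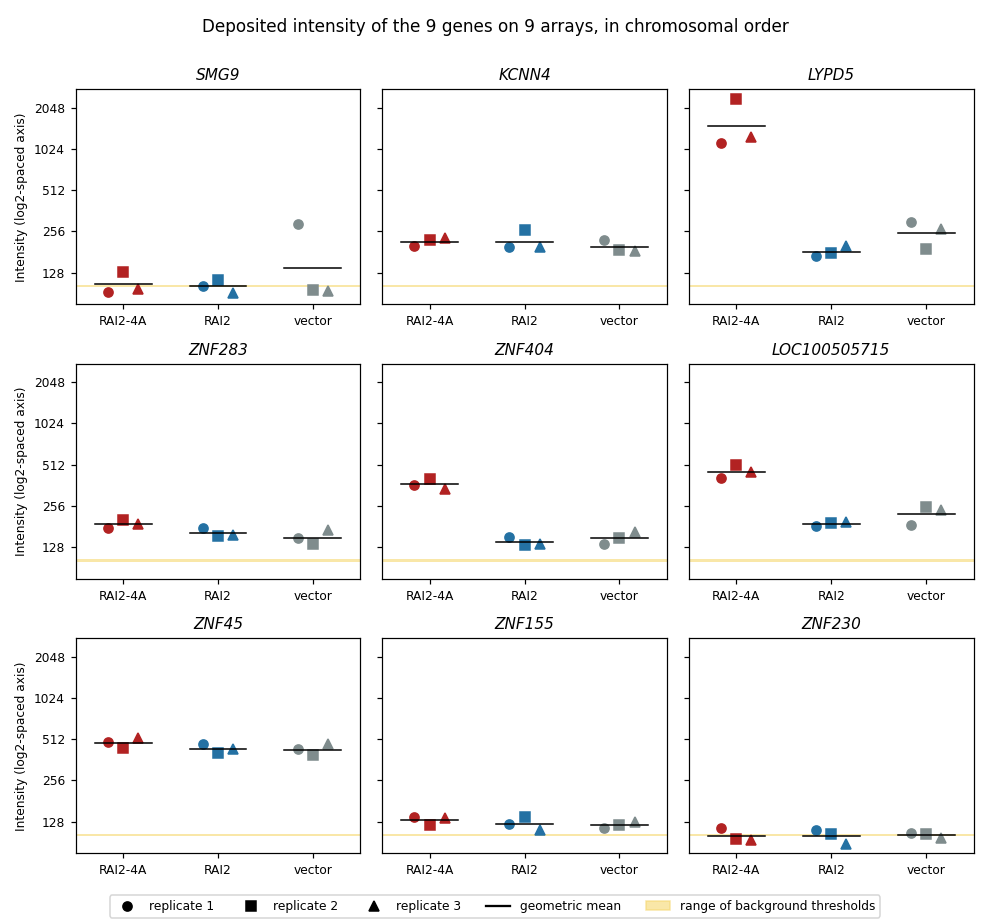
Deposited intensity of the 9 genes, each on its brightest probe, with a panel per gene in chromosomal order and the 3 arrays of each group as points on a log2-spaced axis. Bars are geometric means and the shaded band is the range of background thresholds over the arrays; LYPD5, ZNF404 and LOC100505715 have all 3 RAI2-4A arrays far above the other 6, and the SMG9 panel shows 1 high vector array.

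The LYPD5 probes did not all show this. A second probe, ILMN_2322597, which is annotated to another LYPD5 transcript (NM_001031749 rather than NM_182573), read 966, 1224 and 885 in RAI2-4A arrays, 141, 124 and 171 in RAI2 arrays, and 139.7, 147 and 216 in vector arrays. Its differences of 2.82 (SE 0.19) from vector and 3.04 (SE 0.19) from RAI2 lay within the SE of those of the first probe. The other two probes, 1 annotated to each transcript, stayed near background. ILMN_2247296 read 83.2 to 114 over RAI2-4A arrays, 95.4 to 100.1 over RAI2 arrays and 88.7 to 96.2 over vector arrays, and was above background on 2 of 9 arrays. ILMN_1678176 read 80.7 to 97.1, 78.0 to 84.3 and 65.9 to 95.8 in RAI2-4A, RAI2 and vector arrays, and was above background on none. Their differences from vector in RAI2-4A cells were 0.13 (SE 0.14) and 0.12 (SE 0.14). The transcript annotation therefore did not divide the bright from the dim probes.

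**Figure D2:**
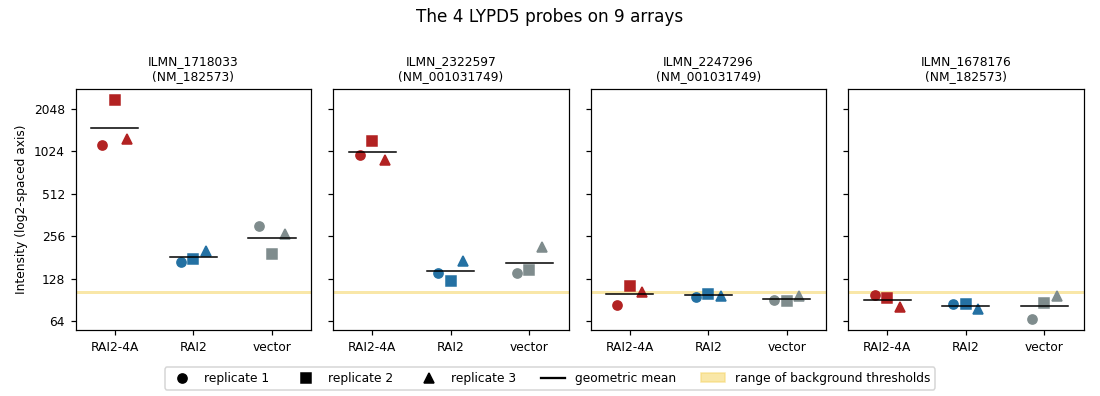
Deposited intensity on a log2-spaced axis for the 4 LYPD5 probes, with the annotated transcript above each panel, the 3 arrays of each group as points and geometric means as bars. The first 2 probes reach 885 or more on every RAI2-4A array, and the other 2 lie at or near the shaded range of background thresholds in all groups.

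ZNF404, a zinc finger gene further along the chromosome, followed the same order with less spread. It read 365, 405 and 338 in RAI2-4A arrays, 152, 133 and 135 in RAI2 arrays, and 134, 149 and 165 in vector arrays. The RAI2-4A arrays did not overlap either group, and RAI2 and vector arrays overlapped. The means were 369 ± 34.1, 139.8 ± 10.3 and 149 ± 15.7 in RAI2-4A, RAI2 and vector cells (SD, n = 3 each). The log2 difference was 1.46 (SE 0.12) from vector and 1.57 (SE 0.12) from RAI2, folds of 2.75 and 2.97. Without the 3 arrays that stood apart the values were 1.30 and 1.45.

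LOC100505715, the long non-coding RNA next to ZNF404, read 409, 510.2 and 451 in RAI2-4A arrays, 183, 191 and 196 in RAI2 arrays, and 184, 251 and 241 in vector arrays. Again every RAI2-4A array lay above all others. The lowest vector array was replicate 1, which fell among the RAI2 arrays, so those groups overlapped. The means were 457 ± 51.0 in RAI2-4A cells, 190.3 ± 6.47 in RAI2 cells and 225 ± 35.8 in vector cells (SD, n = 3 each). The log2 difference was 1.11 (SE 0.14) from vector and 1.37 (SE 0.14) from RAI2, folds of 2.16 and 2.58. With the 3 divergent arrays left out it was 0.87 from vector and 1.29 from RAI2. RAI2-4A replicate 2 was the highest array for LYPD5, ZNF404 and LOC100505715 alike, and it is one of the 3 that stood apart.

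ZNF283, on the plus strand between LYPD5 and ZNF404, showed a smaller difference. It read 177.1, 203 and 188 in RAI2-4A arrays, 176.5, 153 and 156 in RAI2 arrays, and 148, 134 and 170.3 in vector arrays. The RAI2-4A arrays lay above both other groups, though replicate 1 of each form differed little. The means were 189 ± 13.0, 162 ± 12.8 and 151 ± 18.4 in RAI2-4A, RAI2 and vector cells (SD, n = 3 each). The log2 difference was 0.38 (SE 0.13) from vector and 0.26 (SE 0.13) from RAI2. With those 3 arrays left out it was 0.32 and 0.16. With the background set at the mode of each array and an offset of 16 in place of 50, it was 0.60 from vector.

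For ZNF45, ZNF155 and ZNF230, the last genes of the stretch, RAI2-4A arrays overlapped both other groups. ZNF45 read 487, 441 and 526 in RAI2-4A arrays, 474, 408 and 434 in RAI2 arrays, and 433, 392 and 470.5 in vector arrays, so that all 3 groups overlapped. Its log2 difference was 0.17 (SE 0.12) from vector and 0.15 (SE 0.12) from RAI2. For ZNF155 the brightest of 3 probes (ILMN_1727663) read 138, 121 and 137 in RAI2-4A arrays, 123, 138 and 111 in RAI2 arrays, and 116, 121 and 127 in vector arrays. The groups overlapped here too, with differences of 0.14 (SE 0.12) from vector and 0.11 (SE 0.12) from RAI2. The difference from RAI2 was 0.29 (SE 0.12) without the 3 arrays that stood apart and 0.014 without RAI2 replicate 3. Of the other ZNF155 probes, 1 was above background on 5 arrays and 1 on 2, with differences from vector of 0.02 (SE 0.13) and 0.03 (SE 0.14). ZNF230 read 116, 96.1 and 93.4 in RAI2-4A arrays, 110.5, 104 and 88.4 in RAI2 arrays, and 105, 104 and 97.4 in vector arrays, and it was above background on 5 of the 9, so its differences of -0.03 (SE 0.14) from vector and 0.01 (SE 0.14) from RAI2 were measured at the edge of detection.

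On the other side of LYPD5, the potassium channel gene KCNN4 read 199.9, 220.1 and 227 in RAI2-4A arrays, 195, 260.1 and 197 in RAI2 arrays, and 221, 188 and 183 in vector arrays. The groups overlapped, and the differences were 0.14 (SE 0.14) from vector and 0.00 (SE 0.14) from RAI2. The difference from RAI2 was 0.15 without RAI2 replicate 2 and 0.14 without the 3 arrays that stood apart, and that from vector ran from 0.086 to 0.24 with single arrays left out. SMG9 read 92.7, 130.2 and 97.3 in RAI2-4A arrays, 102, 113 and 91.2 in RAI2 arrays, and 291, 95.9 and 94.4 in vector arrays. It was above background on 3 arrays, which were the 3 that stood apart. Its difference of -0.45 (SE 0.38) between RAI2-4A and vector turned to 0.18 without vector replicate 1, and was -0.0089 without the 3 arrays. The 5 zinc finger genes belong to a family of close paralogs, and whether their probes tell the copies apart was not tested.

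For 4 of the 9 members, LYPD5, ZNF404, LOC100505715 and ZNF283, all RAI2-4A arrays exceeded all vector arrays, beside 4.86% of the 12438 genes in that direction, and all RAI2 arrays, beside 5.51%. The first 3 chose the stretch, and the counts describe that choice. The median log2 difference of the 6 members other than LYPD5, ZNF404 and LOC100505715 was 0.14 from vector and 0.09 from RAI2, beside medians over all genes of 0.02 and -0.00. The comparisons share the RAI2-4A arrays.

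In RAI2 cells none of the 9 genes was called. Of the 9 members, 0 passed an adjusted p of 0.05 in RAI2 cells against vector cells by limma, and 0 reached an unadjusted p of 0.05, where 0.418% and 5.9% of all genes did. Beside these shares, a count of 0 among 9 genes does not set the members apart. Both counts come from the fit of all 9 arrays, whose estimate of the spread includes the RAI2-4A arrays. The lowest p belonged to LYPD5, with a log2 difference of -0.51 (SE 0.25, limma, adjusted p = 0.877) and a 95% interval of -1.04 to 0.02. LYPD5 varied most in RAI2-4A cells, with a log2 SD of 0.58 beside 0.38 in vector and 0.15 in RAI2 cells. With only RAI2 and vector arrays in the fit, it differed by -0.51 (SE 0.17, limma, adjusted p = 0.620). The unadjusted count was not taken in that fit. Its second probe differed by -0.23 (SE 0.19). LOC100505715 differed by -0.26 (SE 0.14, limma, adjusted p = 0.953), interval -0.56 to 0.04. Without vector replicate 1 that difference was -0.41 (limma, adjusted p = 0.292), without vector replicate 2 it was -0.17 (limma, adjusted p = 0.899), and with the 3 divergent arrays left out it was -0.42 (limma, adjusted p = 0.241), where LYPD5 was at -0.34 (limma, adjusted p = 0.764). ZNF404 differed by -0.11 (SE 0.12, limma, adjusted p = 0.988), interval -0.38 to 0.15. The 3 genes that were high in RAI2-4A thus all had values below vector in RAI2 cells, none past the threshold and all with overlapping arrays.

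For the other 6 members the RAI2 minus vector differences were 0.14 (SE 0.14) for KCNN4, 0.12 (SE 0.13) for ZNF283, 0.03 (SE 0.12) for ZNF155, 0.02 (SE 0.12) for ZNF45, -0.04 (SE 0.14) for ZNF230 and -0.52 (SE 0.38) for SMG9, with adjusted p values in limma of 0.988 to 0.992. RAI2 and vector arrays overlapped for all 9 members, beside 10.1% of all genes whose arrays did not. With so few members, that share does not set them apart from other genes. The SMG9 difference rested on vector replicate 1 and was 0.12 without it. That of KCNN4 rested on RAI2 replicate 2 and was -0.01 without it.

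The genes on both sides of the 9 members were examined next. Taken in the gene order of RefSeq, the 15 genes with a probe on each side, and ZNF221 between ZNF45 and ZNF155, made 31 flanking genes, of which 20 were bright enough to be tested. None of the 20 passed an adjusted p of 0.05 in limma in any of the 3 comparisons, where 0.0884% (RAI2-4A minus vector), 0.418% (RAI2 minus vector) and 0.378% (RAI2-4A minus RAI2) of all genes did. Their log2 differences ran from -0.18 to 0.31 for RAI2-4A minus vector, with a median of 0.02 beside 0.02 for all genes, and from -0.26 to 0.40 for RAI2 minus vector, with a median of 0.01. Groups did not overlap, with RAI2-4A higher than vector, for 1 of the 20 (5%), beside 4.86% of all genes. That gene was PLAUR, the urokinase receptor and a relative of LYPD5, at 0.30 (SE 0.11, limma, adjusted p = 0.994) in RAI2-4A and 0.40 (SE 0.11, limma, adjusted p = 0.266) in RAI2 against vector. With RAI2-4A lower than vector, groups did not overlap for 1 of the 20. Between RAI2-4A and RAI2 they did not for 1 with RAI2-4A higher, beside 5.51% of all genes, and for 3 with it lower. The shares of all genes in the lower direction were not counted, so those counts of 1 and 3 cannot be read as many or few. The nearest gene tested past ZNF230 was ZNF222, another zinc finger gene, at -0.18 (SE 0.17, limma, adjusted p = 0.994) in RAI2-4A against vector. The 10 genes tested on that side were the same 10 as the measured members of the KRAB zinc finger list of the cluster, and 5 of them were above 0 for RAI2-4A minus vector, with a median of -0.0043. On the side before SMG9, 6 of 10 were above 0, with a median of 0.13.

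**Figure D3:**
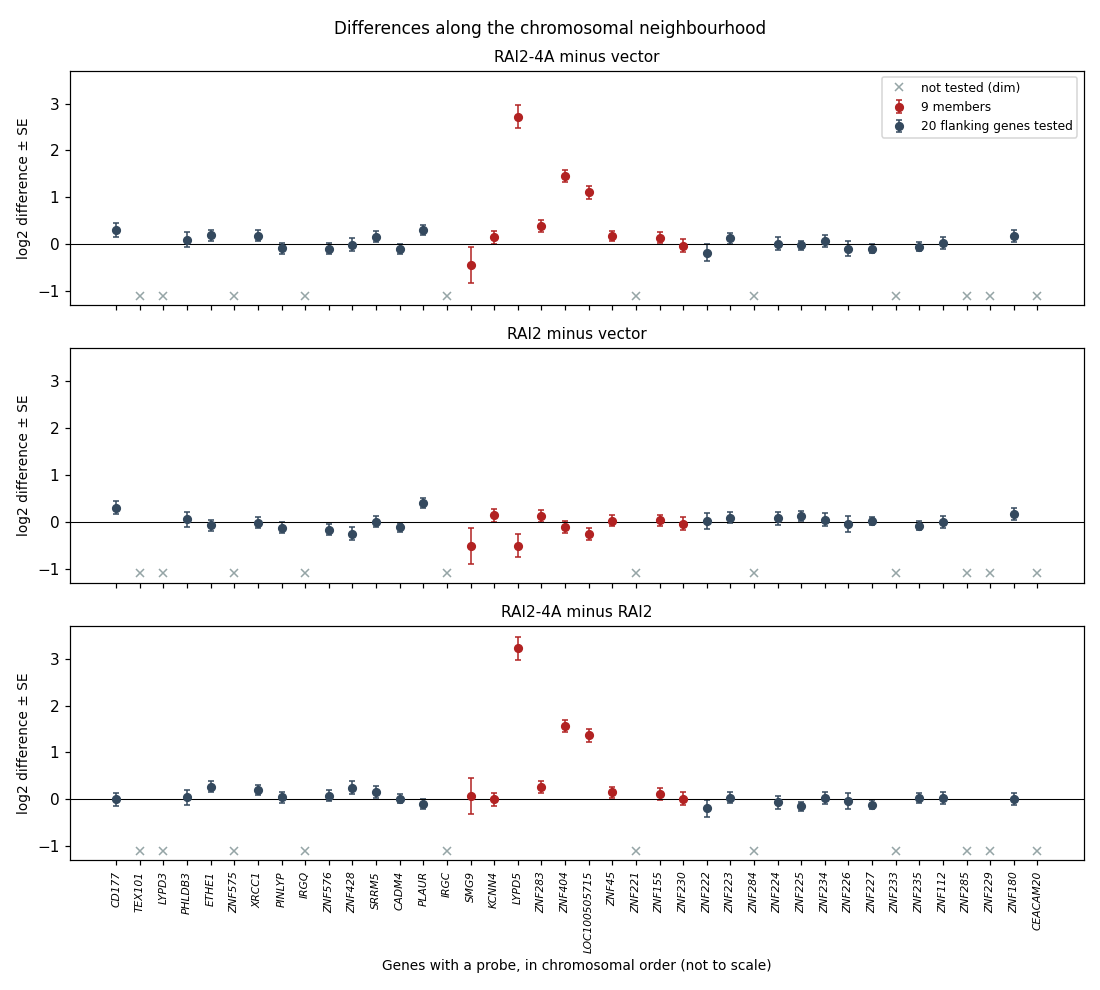
Log2 differences with standard errors (3 arrays a group) for the 9 members and the 20 flanking genes tested, in chromosomal order and not to scale, with crosses for genes too dim to test. LYPD5, ZNF404 and LOC100505715 lie above 1 in the panels for RAI2-4A minus vector and RAI2-4A minus RAI2, ZNF283 between them lies below 0.4, and no member lies above 0.15 for RAI2 minus vector.

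Genes related to the members by family or by function were looked at from lists. Of the LY6/PLAUR family, 8 of 23 genes were measured besides LYPD5, and 1 of them, the lipid-anchored surface protein LY6E, rose in RAI2 cells against vector cells, where 0.322% of all genes rose. LY6E averaged 1387 ± 198 in RAI2 cells and 790.4 ± 115 in vector cells (SD, n = 3 each), a log2 difference of 0.83 (SE 0.14, limma, adjusted p = 0.0147). Leaving out RAI2 replicate 2, RAI2 replicate 3 or vector replicate 3 ended the call (limma, adjusted p up to 0.0861), and the difference was 0.59 without the 3 arrays that stood apart (limma, adjusted p = 0.0559). In RAI2-4A cells LY6E averaged 988 ± 58.8 and differed from vector by 0.34 (SE 0.14, limma, adjusted p = 0.994), and no other listed relative passed in any comparison. The complement inhibitor CD59 differed from vector by 0.02 (SE 0.11) in RAI2-4A cells and 0.17 (SE 0.11) in RAI2 cells. The family's median was 0.04 for RAI2-4A and 0.18 for RAI2 against vector, beside 0.02 and 0.02 for all genes.

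Of the corepressor genes that serve KRAB zinc finger proteins, 11 of 13 were measured and none passed in any of the 3 comparisons. The histone deacetylases HDAC2 and HDAC1 had RAI2-4A minus vector differences of 0.08 (SE 0.13) and -0.00 (SE 0.11), and were the 2 highest of the 11. The list's median was -0.15, with 1 of 11 above 0, and 2 of 11 were above 0 for RAI2 minus vector. Of the nonsense-mediated decay genes around SMG9, 9 of 13 were measured and none passed, with a median of 0.00. The exon junction helicase EIF4A3 differed by 0.14 (SE 0.11) and the decay factor UPF2 by 0.03 (SE 0.11) between the same groups. Of 8 genes related to KCNN4, KCNMB4, a subunit of another calcium-activated potassium channel, was the 1 measured, at -0.29 (SE 0.16).

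The genes whose profile over the 9 arrays was most like that of LYPD5 were sought among 472 genes that spanned at least 1 log2 unit. Profiles were centred, scaled to an SD of 1 and compared by root mean square (RMS) distance, where 0 is identity. ZNF404 lay at 0.25, LOC100505715 at 0.31 and ZNF283, with a span under 1, at 0.66, and the remaining members at 0.93 to 1.40. Outside the stretch the 6 nearest were MIRLET7E at 0.24, AADAC at 0.32, AADACP1 at 0.36, PAGE5 at 0.38, ZNF582 at 0.41 and RGPD6 at 0.52. MIRLET7E, a let-7 microRNA gene, and the zinc finger gene ZNF582 also lie on chromosome 19, outside the flanking genes listed above. Such likeness was picked from the same arrays and is a description.

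These profiles had smaller differences than LYPD5. The probe for MIRLET7E read 150.5, 150.3 and 133 in RAI2-4A arrays, 86.3, 85.3 and 93.8 in RAI2 arrays, and 91.3, 95.8 and 98.3 in vector arrays, and it passed the background threshold in RAI2-4A arrays alone. AADAC, which encodes the arylacetamide deacetylase, read 196, 212 and 189 in RAI2-4A arrays, 111, 99.6 and 128 in RAI2 arrays, and 120.5, 124 and 147 in vector arrays. Its pseudogene AADACP1 read 220.2, 298 and 234 in RAI2-4A arrays, 132, 104 and 125 in RAI2 arrays, and 126, 147 and 174 in vector arrays. Both lie on chromosome 3, and both had every RAI2-4A array above all others. For PAGE5, of a family known from cancer and testis, the RAI2-4A minus vector difference was 0.66 (SE 0.16), and for ZNF582 it was 0.51 (SE 0.12). RGPD6 was above background in RAI2-4A arrays alone, at 106 to 132. MIRLET7E and RGPD6 thus passed the filter of at least 3 arrays only through RAI2-4A arrays. Their place among the 6 therefore depends on the group in which they were high.

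**Figure D4:**
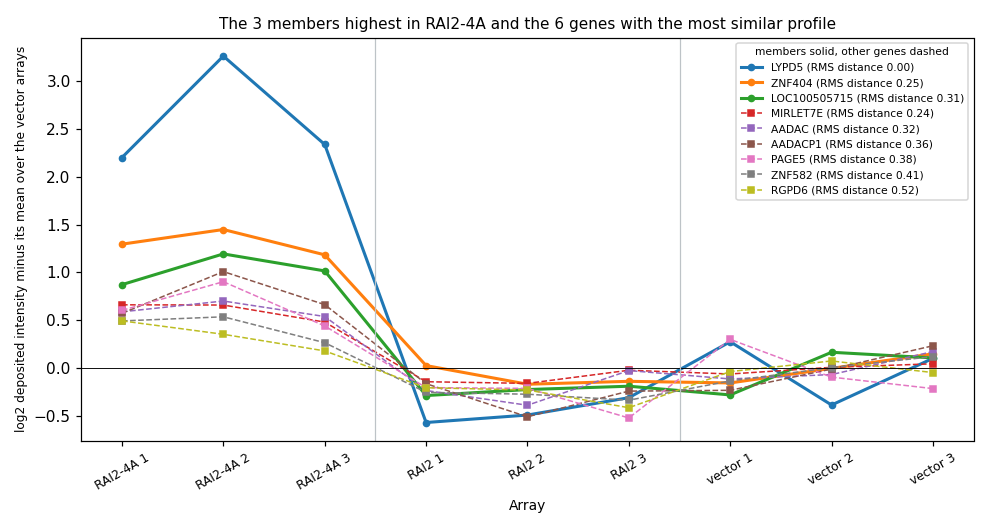
Log2 deposited intensity on each array minus the gene's own mean over the vector arrays, for LYPD5, ZNF404 and LOC100505715 (solid lines) and the 6 genes with the most similar profile (dashed lines), with RAI2-4A arrays at the left and vector arrays at the right. All 9 genes are higher on each RAI2-4A array than on the other 6 arrays, and LYPD5 has the largest step of those drawn.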

How the data were processed

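The 9 samples were run on Illumina bead arrays with 1 colour, from cRNA made with 500 ng of total RNA, per the labels' protocols. BeadStudio and limma are named, without a version, per the submitters' processing notes. The authors deposited linear intensity values for 47323 probes, which had medians of 98.5 to 99.5 on all arrays and were taken as normalized already (the method is not given in the sources used here). In a second deposited table, 18 columns (9 of signals, 9 of detection p) could not be tied to samples by name and were not used, so detection was judged from the deposited intensities.

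Values were missing for 3 probes, which were dropped. Background was corrected with normexp (saddle-point, offset 50) and log2 was taken. Above background means a log2 intensity that passed the array's mode by 1.64 SD of the side below the mode, at intensities of 99.8 to 104, so 42.3% to 47.9% of probes were. Probes above it on at least 3 arrays were kept (22400, and 11 of the members' 14), and the brightest kept probe stood for each of 12438 genes. Differences of further probes come from a fit of all probes. The probe table names 1 gene for 30113 probes and several or none for 17210, and 30074 matched RefSeq (GRCh38.p14) by Entrez ID, with 0 symbols changed. RefSeq also gave gene order and upstream sequences.

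One limma 3.58.1 model (R 4.3.3) on the 9 arrays (6 residual degrees of freedom) gave 3 two-sided contrasts, adjusted by Benjamini-Hochberg over all genes at 0.05. It was run on simulated data in which the arrays varied independently. The residuals of the real arrays were correlated, a case which that run does not cover. The number of arrays limits the precision. The members, lists and rule for named genes (all members, called flanking or listed genes, else the nearest or the 2 brightest, and the 6 most similar profiles) were chosen with earlier results of these data known. Alternatives changed background, normalization, filter, probe rule, variance model, samples and pairing. Same-numbered RAI2-4A and RAI2 arrays had residual correlations of 0.444, 0.437 and 0.230, all over 0.1, so their numbers may pair them. The 0.437 is that of the replicate 2 arrays, both among the arrays that stood apart. Deviations around a group mean are not independent, so the 3 correlations cannot show a pairing apart from that shared deviation. Pairing is a reading of the data, as the labels state none. Same-numbered pairs with vector ran from -0.434 to 0.197.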

Additional observations from a re-analysis of the deposited data

How the results depend on the processing

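Across 22 alternatives, 9 of which left out 1 array, LYPD5, ZNF404 and LOC100505715 stayed higher in RAI2-4A than in vector and in RAI2 in 129 of 129 values. These genes chose the stretch by being high in RAI2-4A cells, so the tally is a description. Many of the values could not change, as some alternatives altered only the SE or left out an array of the group not compared. For RAI2 minus vector, 0 members passed in the 21 alternatives that gave that comparison (20 for SMG9 and ZNF230). With single arrays left out, RAI2-4A minus vector ran from 2.38 to 2.92 for LYPD5, 1.37 to 1.55 for ZNF404 and 0.96 to 1.20 for LOC100505715, and RAI2-4A minus RAI2 from 2.89 to 3.43, 1.49 to 1.64 and 1.28 to 1.45. The alternative with the background set at the mode also lowered the offset from 50 to 16. RAI2-4A minus vector was then 1.99 for ZNF404, 1.36 for LOC100505715 and 0.60 for ZNF283. RAI2-4A minus RAI2 was then 3.74 for LYPD5, 2.17 for ZNF404 and 1.71 for LOC100505715. Without background correction ZNF404 was 1.40 above RAI2. Without the 3 arrays that stood apart, RAI2-4A minus vector was 1.30 for ZNF404 and 0.87 for LOC100505715, and RAI2-4A minus RAI2 was 0.29 for ZNF155. For RAI2 minus vector, the sign turned for ZNF155 with the mean of its probes (-0.035), and without the 3 arrays for ZNF155 (-0.11) and SMG9 (0.016). With single arrays left out the RAI2 minus vector differences ran from -0.41 to -0.17 for LOC100505715, -0.72 to -0.35 for LYPD5, -0.20 to -0.022 for ZNF404, 0.023 to 0.23 for ZNF283, -0.84 to 0.12 for SMG9, -0.0092 to 0.24 for KCNN4, -0.049 to 0.090 for ZNF45, -0.073 to 0.13 for ZNF155 and -0.13 to 0.084 for ZNF230. The call of LY6E was lost with the background at the mode (limma, adjusted p = 0.0756) and with every probe tested on its own (0.0617), besides the arrays named above. The causes were not tested. With the replicate number as a block, RAI2-4A minus vector was 2.72 (SE 0.27) for LYPD5, and the lowest adjusted p of a member for RAI2 minus vector was 0.846. A replicate block over RAI2-4A and RAI2 arrays alone gave 3.22 (SE 0.18) for LYPD5, and the block changed no member's call for RAI2 minus vector. The stricter filter gave no value for SMG9 and ZNF230, which lie near background, as do 2 LYPD5 probes.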
